A study of Homo sapiens with 6 samples.

Results

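The genes that license origins, unwind DNA, copy it and pack it again were followed as one group of 56, the DNA replication machinery. The members were the rows of the deposited gene table whose symbol was on a list of 56 replication genes; all 56 symbols were found among the 61806 genes of the table. They fall into 7 sets: 9 origin licensing genes, 14 genes of the helicase and its loading, 14 genes of the polymerases and the lagging strand, 7 genes of the sliding clamp and its loaders, 5 genes of fork protection and turnover, 4 genes of nucleotide supply and 3 genes of chromatin assembly behind the fork. RNA came from A549 cells, an established human lung adenocarcinoma line whose genotype is labelled WT. The cells were plated for 24 h and then kept for 24 h with DMSO, the solvent (3 libraries), or with Japoflavone B (3 libraries), which the series presents as an inhibitor of PARP1. The labels give the dose as 40 without a unit. They title the treated libraries LE-532, a code they do not explain. No untreated cells, other dose or other time were analysed here, and every library comes from the same cell line.

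The 6 libraries held 15298531 to 21744407 counts assigned to genes. Within a group, the Pearson correlation of log2 CPM (counts scaled to the library size) between libraries was 0.990 to 0.992, and between groups it was 0.926 to 0.931. Mitochondrial genes took 3.97 to 4.70% of counts after DMSO and 8.33 to 8.58% after Japoflavone B. Of 6 keratin and adhesion markers of an epithelial line, 5 had a mean of at least 1 FPKM (fragments counted per length of exon and per size of the library) in both groups; their summed level was 1148 to 1317 FPKM after DMSO and 561.7 to 595.8 FPKM after Japoflavone B. No endothelial or alveolar type 2 marker reached a mean of 1 FPKM in either group. Of 4 fibroblast markers COL1A1 alone did, with 4.64 FPKM after DMSO and 0.473 FPKM after Japoflavone B, and of 3 ciliated and basal airway markers TP63 alone, with 1.06 and 0.07 FPKM. Of 6 leukocyte markers CD14 alone did, at 2.53 FPKM after DMSO and 0.313 FPKM after Japoflavone B, and PTPRC and CD3E, which define leukocytes and T cells, averaged 0 FPKM to 2 decimals. The part of these differences in the results below was not tested.

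Replication starts at origins that are marked in G1 phase. The origin recognition complex (ORC1 to ORC6), CDC6 and CDT1 load rings of MCM2 to MCM7 onto DNA, and geminin (GMNN) binds CDT1 outside G1 phase so that no origin is loaded again. In S phase the kinase CDC7 with DBF4 turns the loaded rings into active helicases by joining them with CDC45 and the GINS complex, after which polymerase alpha-primase lays primers, polymerases epsilon and delta extend them, and PCNA, a ring set on DNA by replication factor C, holds the polymerases in place. Ribonucleotide reductase and thymidine enzymes supply the nucleotides, and CAF-1 with ASF1 puts histones on the new DNA. Many of these genes are transcribed in waves at the G1/S transition and are known targets of E2F factors.

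The RNA of the replication machinery was lower after Japoflavone B, and the sets differed in how much. Of the 56 genes 51 fell, 3 rose and 2 did not pass the test, where 35.4% of the 16082 genes tested fell and 34.7% rose (edgeR quasi-likelihood test, Benjamini-Hochberg adjusted p under 0.05 over all genes tested). A call in either direction was made for 54 of the 56 and for 70.0% of all. The median log2 fold change of the 56 genes was -1.11 beside a median of -0.00 over all genes tested. A fall of at least 2-fold was found for 29 of the 56 genes and for 15.0% of all genes, and a fall of at least 4-fold for 8 of the 56 and for 3.88% of all genes. Those 8 were POLE2, MCM3, MCM6, RRM2, CLSPN, GINS1, ASF1B and GINS3. Added together, the 56 genes had 1387, 1417 and 1441 FPKM in the DMSO libraries and 661.5, 660.4 and 655.5 FPKM in the Japoflavone B libraries. The summed level was thus 2.15-fold lower, from 1415 ± 27.1 to 659.1 ± 3.19 FPKM (SD, n = 3), and the libraries of each group lay close together. The FPKM of the groups did not overlap for 53 of the 56 genes, nor for 71.6% of all genes tested; 52 of the 56, and 40.7% of all genes, were lower without overlap. In bulk RNA, fewer cells in S phase and less of these RNAs per cell cannot be told apart. Whether each library stands for its own culture is not stated in the labels, and the p-values rest on the spread from library to library, which may be technical.

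**Figure D1:**
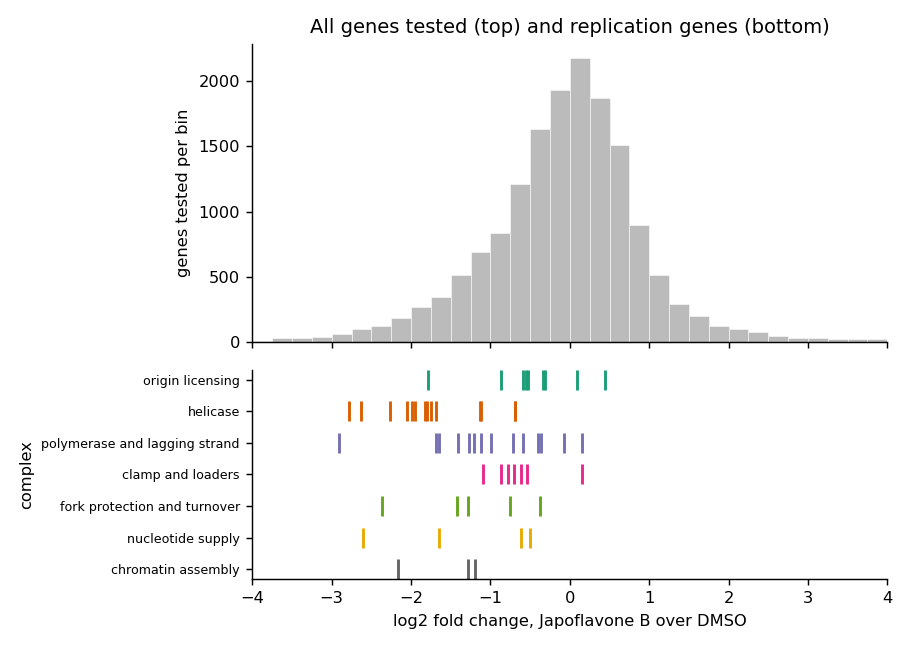
Distribution of the log2 fold change (Japoflavone B over DMSO) over all genes tested (histogram) with the 56 replication genes marked by set; the axis runs from -4 to 4, and values beyond it are not drawn. All genes tested centre on -0.00, while the median of the replication genes is -1.11.

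Fold changes use scaling by the trimmed mean of M values (TMM), whereas FPKM are scaled by the library total, so the ratio of 2 FPKM values differs slightly from the fold change. With library totals in the test, the median over all genes shifted by -0.10 log2, and the share of calls that were higher went from 49.5 to 42.4%. On that scaling 52 of the 56 genes fell and 1, CDT1, rose. Replication genes near no change therefore depended on the scaling, and each is given below with both values.

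The 250 bases before the start of transcription are shown for 4 members: MCM3 and MCM6, which fell most among the helicase genes, CDT1, which rose, and RFC1, whose call depended on the scaling. POLE2, which had the lowest value of all members in the edgeR test, is not shown. Sequences are from RefSeq (GRCh38.p14), read 5′ to 3′ on the strand of the gene. Capitals mark the letters TTTGGCGC and TTTCCCGC of E2F-type sites and the CCAAT box, or their reverse complements GCGCCAAA, GCGGGAAA and ATTGG. MCM3 lies on the minus strand at chr6:52284743-52284992, MCM6 on the minus strand at chr2:135876444-135876693, CDT1 on the plus strand at chr16:88803539-88803788 and RFC1 on the minus strand at chr4:39366363-39366612.
MCM3: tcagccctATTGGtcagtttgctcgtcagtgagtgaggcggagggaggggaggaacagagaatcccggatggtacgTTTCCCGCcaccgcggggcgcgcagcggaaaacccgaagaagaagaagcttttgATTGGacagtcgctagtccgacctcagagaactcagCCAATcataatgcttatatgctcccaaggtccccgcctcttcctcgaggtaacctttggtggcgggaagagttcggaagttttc
MCM6: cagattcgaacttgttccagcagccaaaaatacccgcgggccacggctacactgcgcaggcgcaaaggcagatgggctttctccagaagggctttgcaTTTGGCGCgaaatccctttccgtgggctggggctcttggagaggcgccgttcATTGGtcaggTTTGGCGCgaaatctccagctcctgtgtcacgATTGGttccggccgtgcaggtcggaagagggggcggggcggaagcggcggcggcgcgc
CDT1: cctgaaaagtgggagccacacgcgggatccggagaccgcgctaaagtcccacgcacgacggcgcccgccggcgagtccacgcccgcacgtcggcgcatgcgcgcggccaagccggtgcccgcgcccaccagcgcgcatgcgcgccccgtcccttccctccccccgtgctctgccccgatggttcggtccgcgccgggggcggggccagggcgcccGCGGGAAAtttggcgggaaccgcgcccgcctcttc
RFC1: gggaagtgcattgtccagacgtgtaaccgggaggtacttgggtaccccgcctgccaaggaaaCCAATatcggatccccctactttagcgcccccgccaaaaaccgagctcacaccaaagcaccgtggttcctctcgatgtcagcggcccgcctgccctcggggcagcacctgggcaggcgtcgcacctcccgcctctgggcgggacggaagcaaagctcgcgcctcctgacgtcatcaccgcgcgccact
The annotation of the deposited table places the 5′ ends of MCM3 and RFC1 inside these windows.

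The MCM6 window holds TTTGGCGC at 152 to 145 and again at 90 to 83 bases before the start, with ATTGG letters at 100 to 96 and 58 to 54 bases. That of MCM3 holds TTTCCCGC at 174 to 167 bases and CCAAT letters in 3 places. The CDT1 window, although its RNA rose, holds GCGGGAAA at 35 to 28 bases. That of RFC1 holds CCAAT at 188 to 184 bases and neither TTTGGCGC nor TTTCCCGC on either strand. Variants of these E2F-type strings were not searched in any window, so RFC1 may hold such a variant. RefSeq promoter windows were found for 49 of the 56 genes. The shares of all genes in this paragraph are of the 27305 genes with such windows, not of the 16082 genes tested. Base composition was not matched. On both strands, TTTGGCGC was in the windows of 6 of the 49 (12.2%) and of 0.681% of all 27305 genes, and TTTCCCGC in those of 10 (20.4%) and of 1.70% of all genes. Either string was in 16 of the 49 windows (32.7%) and in 2.36% of all. CCAAT letters were in 30 (61.2%) and in 37.0% of all, and an E2F-type string together with CCAAT in 11 (22.4%) and in 1.08%. TTTGAA, the letters of the cell cycle element called CHR, were in 2 of the 49 (4.08%) and in 16.1% of all genes. None of these strings contains another, but TTTGGCGC can overlap its own reverse complement, as in TIPIN. Genes with several starts were counted once if any window matched; 22.4% of the 49 and 19.0% of all genes have several. Either E2F-type string was in 8 of the 25 windows of genes that fell at least 2-fold (32.0%) and in 8 of the other 24 (33.3%). Taken singly, TTTGGCGC was in 16.0% and 8.33% of these windows, TTTCCCGC in 16.0% and 25.0%, CCAAT in 64.0% and 58.3%, and an E2F-type string with CCAAT in 28.0% and 16.7%. These shares rest on few windows and were not tested. Among the 8 genes that fell at least 4-fold, MCM3 and MCM6 alone have an E2F-type string in this window. POLE2, RRM2, CLSPN, GINS1, ASF1B and GINS3 have neither string, and neither is found for MCM2, which fell less. A match of letters describes the sequence and is not a bound site.

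**Figure D2:**
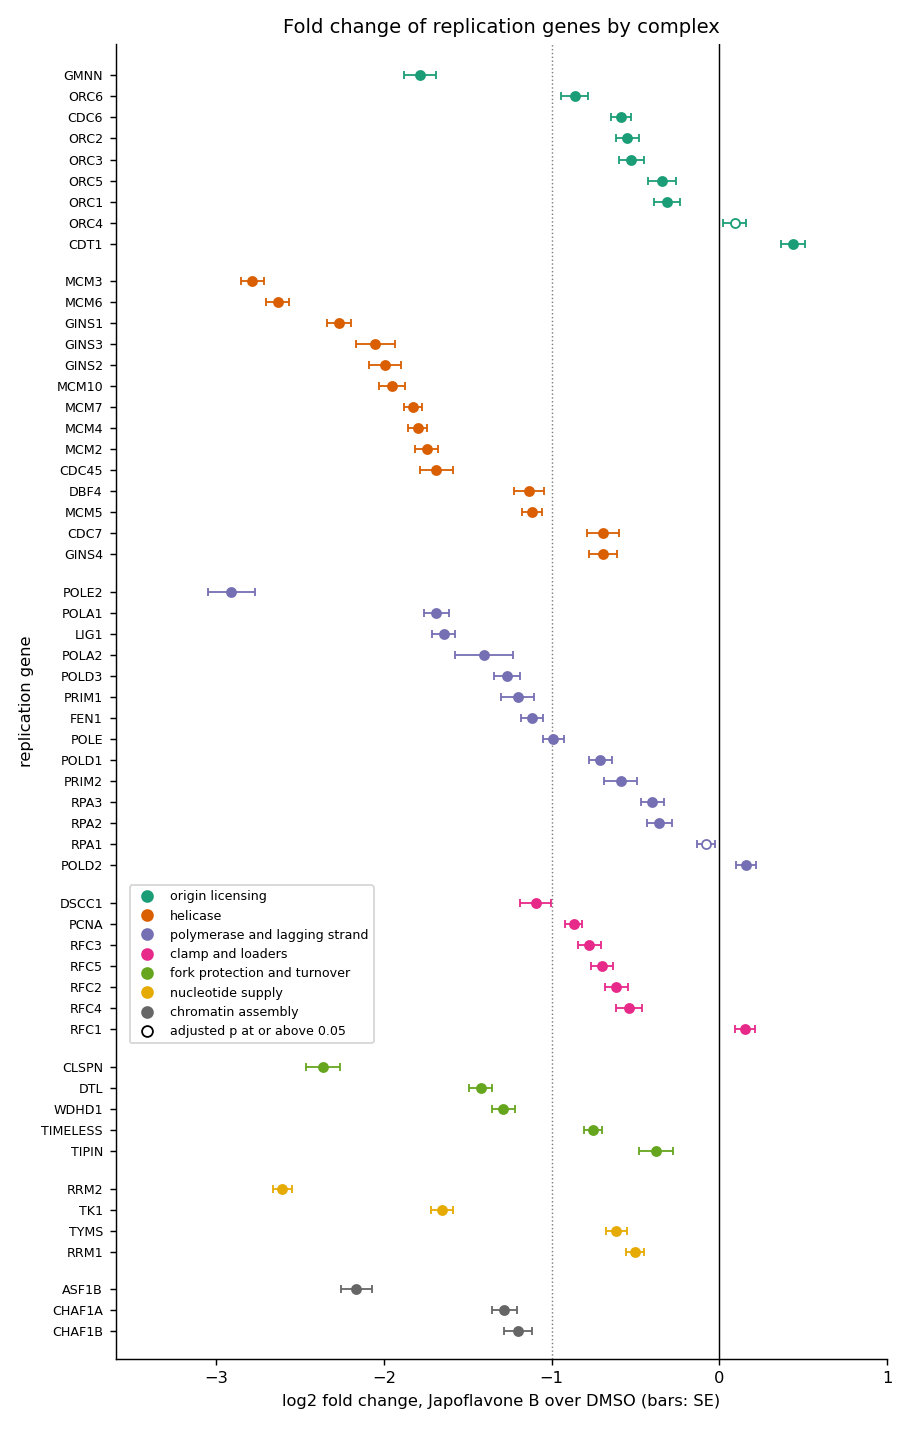
Log2 fold change of each of the 56 replication genes with its standard error, ordered within the 7 sets; filled points passed the test, open points did not, and the dotted line marks a 2-fold fall. The helicase genes run from -2.78 (MCM3) to -0.69 (GINS4), while most licensing and clamp loader genes lie between -1 and 0 and CDT1 stands at 0.44.

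Origin licensing had the smallest median fall of the 7 sets and held the gene that rose most. Of its 9 genes 7 fell, 1 rose and 1 did not pass, with a median log2 fold change of -0.53, and only GMNN fell by more than 2-fold. CDT1 (ENSG00000167513, chromosome 16, 88803789 to 88809258, GRCh38), which brings the MCM ring to the origin, had 16.0, 18.7 and 18.5 FPKM after DMSO and 23.5, 21.7 and 22.03 FPKM after Japoflavone B. All 3 treated libraries lay above all 3 solvent libraries. CDT1 rose 1.36-fold, log2 fold change 0.44 ± 0.07 (SE; edgeR adjusted p = 2.78e-06), and 0.34 with library totals. GMNN (ENSG00000112312, chromosome 6, 24774931 to 24786099), the inhibitor of CDT1, had 18.2, 18.9 and 22.2 FPKM after DMSO and 5.50, 4.85 and 5.56 FPKM after Japoflavone B. Its groups were far apart, and GMNN fell 3.45-fold, log2 fold change -1.79 ± 0.09 (edgeR adjusted p = 7.27e-16). The 2 genes thus moved in opposite directions. Per library, CDT1 stood at 0.884, 0.991 and 0.835 times the FPKM of GMNN after DMSO and at 4.27, 4.47 and 3.96 times after Japoflavone B. The ratio was 4.69-fold higher after treatment; the exact two-sided permutation test gave p = 0.1, the smallest that 3 against 3 libraries allow.

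The genes of the origin recognition complex and CDC6 were reduced by less than 2-fold. Of ORC1 to ORC6 5 fell and ORC4 did not pass. ORC1, the ATPase subunit whose protein is made and destroyed with the cell cycle, had 13.1, 13.1 and 12.6 FPKM after DMSO and 9.10, 10.2 and 9.84 FPKM after Japoflavone B, and its log2 fold change was -0.31 ± 0.08 (edgeR adjusted p = 6.21e-04). ORC6, the smallest subunit, fell most (-0.86 log2, 1.82-fold), followed by ORC2 (-0.55), ORC3 (-0.53) and ORC5 (-0.34). ORC4, a core ATPase-fold subunit, had 4.79, 4.84 and 4.82 FPKM after DMSO and 4.84, 4.88 and 4.64 FPKM after Japoflavone B. Its groups overlapped, and its log2 fold change was 0.09 ± 0.07 (edgeR adjusted p = 0.236), with the sign reversed on library totals (-0.01). Summed over the 6 subunits the level went from 59.4 ± 1.24 to 40.8 ± 0.719 FPKM (SD, n = 3), 1.45-fold lower. CDC6, the ATPase that joins ORC at the origin, had 20.5, 19.3 and 19.8 FPKM after DMSO and 11.7, 12.6 and 12.5 FPKM after Japoflavone B, with no overlap. CDC6 fell 1.5-fold, log2 fold change -0.59 ± 0.06 (edgeR adjusted p = 9.69e-10), so its FPKM relative to ORC1 went from 1.54 ± 0.0566 to 1.27 ± 0.0233.

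**Figure D3:**
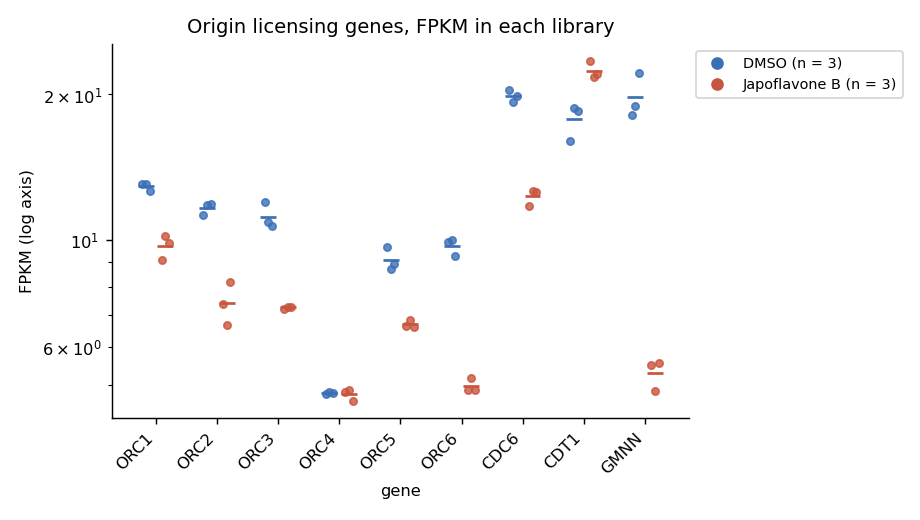
FPKM (log axis) of the 9 origin licensing genes in each of the 3 DMSO and 3 Japoflavone B libraries (points) with the group mean (line). CDT1 is higher in all 3 treated libraries, GMNN is lowest relative to its controls, and the ORC4 points of the groups lie at the same height.

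The helicase genes fell together. All 14 fell, 12 of them by at least 2-fold, with a median log2 fold change of -1.81. The 11 genes of the active helicase (MCM2 to MCM7, CDC45 and GINS1 to GINS4, called CMG) went from a summed 298.5 ± 9.88 to 71.3 ± 1.43 FPKM (SD, n = 3), 4.18-fold lower. MCM3 (ENSG00000112118, chromosome 6, 52264014 to 52284881), whose promoter is shown above, had 45.1, 48.0 and 49.8 FPKM after DMSO and 6.28, 6.78 and 6.29 FPKM after Japoflavone B. Its treated libraries were close together and far below the solvent libraries. MCM3 fell 6.89-fold, log2 fold change -2.78 ± 0.07 (edgeR adjusted p = 1.79e-23), and only 1.29% of all genes tested had as low a value. MCM6 (ENSG00000076003, chromosome 2, 135839626 to 135876443) had 48.2, 48.3 and 50.0 FPKM after DMSO and 7.81, 6.29 and 7.84 FPKM after Japoflavone B. It was nearly as far down, 6.20-fold lower (-2.63 log2; edgeR adjusted p = 1.26e-22). MCM7, the most abundant subunit, had 75.5, 82.1 and 84.7 FPKM after DMSO and 20.9, 21.7 and 21.1 FPKM after Japoflavone B. The groups did not overlap, and MCM7 fell 3.55-fold (-1.83 log2; edgeR adjusted p = 4.73e-21). MCM4 fell 3.48-fold and MCM2 3.36-fold, whereas MCM5 fell 2.17-fold (log2 fold changes -1.80, -1.75 and -1.12).

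The 6 subunits of the ring, which assemble in equal numbers, differed less from one another in RNA after treatment. In the DMSO libraries MCM7 led, MCM3 and MCM6 followed with overlapping values (45.1 to 49.8 and 48.2 to 50.0 FPKM), and MCM4, MCM2 and MCM5 came after them at 30.4, 22.4 and 16.8 FPKM on average with no overlap between neighbours. In the Japoflavone B libraries MCM7 still led, MCM4 had 8.12 FPKM, and MCM6, MCM5, MCM3 and MCM2 had 7.31, 7.21, 6.45 and 6.20 FPKM, where neighbours in the order overlapped except MCM7 with MCM4 and MCM5 with MCM3. The highest subunit had 4.81 ± 0.105 times the FPKM of the lowest after DMSO and 3.47 ± 0.156 times after Japoflavone B (SD, n = 3). MCM3 went from 0.590 ± 0.00709 to 0.304 ± 0.00798 times MCM7. Together MCM2 to MCM7 went from 246.7 ± 8.78 to 56.5 ± 0.606 FPKM, 4.37-fold lower.

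**Figure D4:**
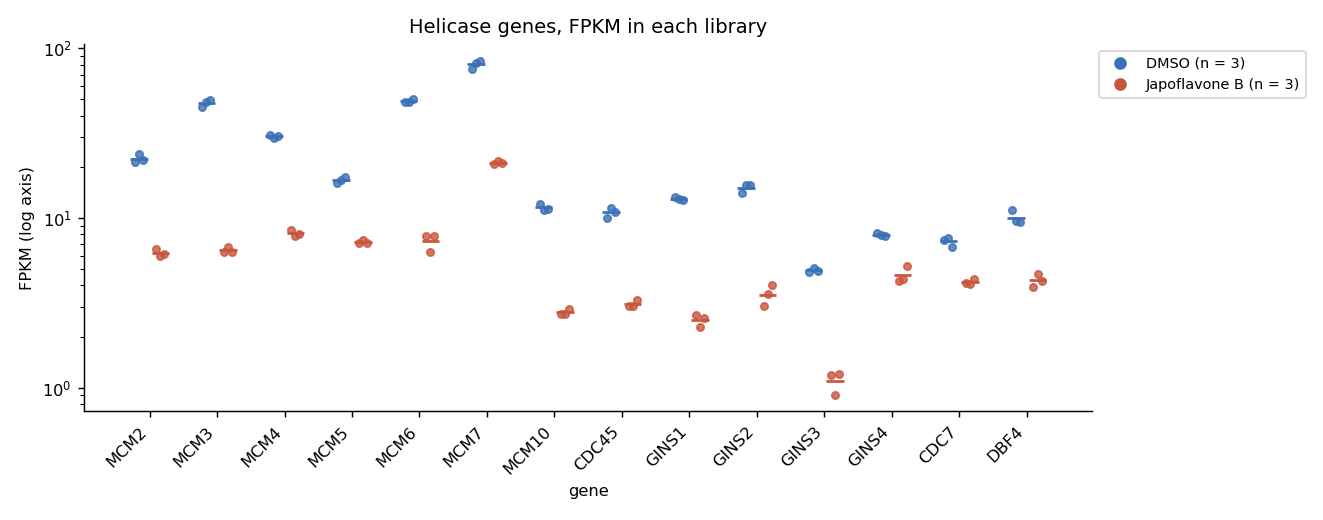
FPKM (log axis) of the 14 helicase genes in each of the 3 DMSO and 3 Japoflavone B libraries (points) with the group mean (line). No gene has overlapping groups; MCM3 and MCM6 drop from near 48 FPKM to the level of MCM2 and MCM5.

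The factors that activate the helicase followed. GINS1 fell 4.82-fold, GINS3 4.14-fold and GINS2 3.99-fold, while GINS4, the fourth subunit of the same complex, had 8.15, 7.94 and 7.85 FPKM after DMSO and 4.23, 4.35 and 5.20 FPKM after Japoflavone B. Its groups did not overlap, but GINS4 fell only 1.62-fold (-0.69 log2; edgeR adjusted p = 1.88e-08). MCM10, needed for the helicase to start moving, fell 3.86-fold, and CDC45 fell 3.22-fold (-1.95 and -1.69 log2). CDC7, the kinase that triggers firing, had 7.42, 7.65 and 6.74 FPKM after DMSO and 4.14, 4.08 and 4.36 FPKM after Japoflavone B. Its activating subunit DBF4 had 11.1, 9.54 and 9.52 FPKM after DMSO and 3.90, 4.69 and 4.28 FPKM after Japoflavone B. Both were lower in every treated library, and CDC7 fell 1.62-fold and DBF4 2.20-fold (-0.70 and -1.13 log2). DBF4 went from 1.39 ± 0.129 to 1.02 ± 0.110 times the FPKM of CDC7.

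Polymerase subunits of one enzyme were reduced unequally. Of the 14 genes of the polymerases and the lagging strand 12 fell, 7 of them by at least 2-fold, POLD2 rose and RPA1 did not pass, and the median log2 fold change was -1.05. POLE2 (ENSG00000100479, chromosome 14, 49643555 to 49688422), the second subunit of polymerase epsilon, had 6.92, 6.74 and 7.78 FPKM after DMSO and 0.86, 0.89 and 0.90 FPKM after Japoflavone B. Its groups were separated by a wide gap. POLE2 fell 7.52-fold, log2 fold change -2.91 ± 0.14 (edgeR adjusted p = 1.03e-16), the lowest of the 56 values in that test. On log2(FPKM + 1), which understates changes of low genes, its value was -2.11 with limma, behind MCM3 (-2.71), MCM6 (-2.59) and RRM2 (-2.49). POLE, the catalytic subunit, had 9.91, 9.74 and 9.49 FPKM after DMSO and 4.61, 4.15 and 4.89 FPKM after Japoflavone B, and fell 1.99-fold (-0.99 log2; edgeR adjusted p = 3.92e-14). POLE2 thus went from 0.737 ± 0.0721 to 0.195 ± 0.0169 times POLE, a ratio 3.78-fold lower with no overlap (exact two-sided permutation p = 0.1, the smallest possible).

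In polymerase delta, the lagging strand enzyme, the catalytic POLD1 had 15.1, 18.2 and 16.9 FPKM after DMSO and 9.42, 9.80 and 9.33 FPKM after Japoflavone B. POLD3, an accessory subunit, had 9.80, 9.41 and 8.96 FPKM after DMSO and 3.70, 3.42 and 3.80 FPKM after Japoflavone B. Neither gene had overlapping groups. POLD3 fell 2.40-fold and POLD1 1.64-fold (-1.27 and -0.71 log2), and POLD3 went from 0.566 ± 0.0732 to 0.383 ± 0.0304 times POLD1. POLD2, which links these subunits, had 14.9, 17.4 and 17.7 FPKM after DMSO and 17.4, 17.3 and 17.2 FPKM after Japoflavone B. Its groups overlapped: the first DMSO library lay below all treated libraries, whereas DMSO libraries 2 and 3 (17.42 and 17.70 FPKM) lay above the highest of them (17.40 FPKM). The log2 fold change of POLD2 was 0.16 ± 0.06 (edgeR adjusted p = 0.0235), and its call was lost with library totals (0.05; adjusted p = 0.432) and without the first DMSO library (0.08; adjusted p = 0.147). It was also lost without Japoflavone B library 1 or 2 (edgeR adjusted p = 0.0526 and 0.0605). 

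In polymerase alpha-primase all 4 genes fell: POLA1, the polymerase, 3.22-fold, its partner POLA2 2.65-fold, the primase PRIM1 2.30-fold and PRIM2 1.5-fold. POLA2 was low throughout, with 1.43, 2.08 and 1.82 FPKM after DMSO and 0.71, 0.63 and 0.54 FPKM after Japoflavone B. A gene without a symbol overlaps POLA2 on the same strand by 43662 bases and had 54 counts over all libraries. The counting mode is not given in the sources used here, so reads of POLA2 may have been split or lost, which could bear on its level and ratio. POLA1 had 5.29, 4.61 and 4.84 FPKM after DMSO and 1.42, 1.46 and 1.38 FPKM after Japoflavone B. Both were lower in every treated library, and POLA2 relative to POLA1 overlapped between groups (exact permutation p = 0.4). PRIM1 had 12.3, 10.55 and 12.9 FPKM after DMSO and 4.51, 5.10 and 4.84 FPKM after Japoflavone B. PRIM2 had 5.77, 4.83 and 4.43 FPKM after DMSO and 3.11, 3.23 and 3.02 FPKM after Japoflavone B. Neither primase gene had overlapping groups, and PRIM1 went from 2.41 ± 0.433 to 1.54 ± 0.0821 times PRIM2 without overlap. PRIM1 overlaps NACA on the same strand by 333 bases (NACA had 0.67 log2), and how their reads were divided is not known. POLD3 and RFC3 also overlap other genes on the same strand, by 4683 and 4636 bases.

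Replication protein A, which coats single-stranded DNA, was reduced little. RPA2 and RPA3 fell 1.28-fold and 1.32-fold (-0.36 and -0.40 log2). RPA1, the large DNA-binding subunit, had 43.8, 44.2 and 47.9 FPKM after DMSO and 40.9, 39.6 and 39.3 FPKM after Japoflavone B. These FPKM did not overlap, but after TMM scaling the log2 fold change was -0.08 ± 0.05 (edgeR adjusted p = 0.179), and RPA1 was called lower with library totals (-0.18; adjusted p = 0.00255). The summed level of RPA1 to RPA3 was 1.24-fold lower, from 82.9 ± 2.22 to 66.9 ± 1.30 FPKM. The enzymes that finish lagging strand fragments fell further: LIG1, the ligase, 3.13-fold (-1.64 log2) and FEN1, the flap nuclease, 2.17-fold (-1.12 log2). FEN1 overlaps FADS2 on the same strand by 4259 bases (FADS2 had -2.22 log2), and the counting mode is not given in the sources used here, so how reads of FEN1 and FADS2 were divided is not known. RPA3 likewise overlaps UMAD1 on the opposite strand by 77897 bases (UMAD1 had 0.06 log2).

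The clamp and its loaders fell moderately. Of 7 genes 6 fell, DSCC1 alone by over 2-fold, and RFC1 rose slightly; the median log2 fold change was -0.70. PCNA (ENSG00000132646, chromosome 20, 5114953 to 5126626), the sliding clamp and the most abundant RNA of the 56, had 297.5, 306.6 and 314.1 FPKM after DMSO and 154.1, 159.1 and 154.9 FPKM after Japoflavone B. The groups were tight and did not overlap. PCNA fell 1.83-fold, log2 fold change -0.87 ± 0.05 (edgeR adjusted p = 5.87e-15). RFC1, the large subunit of the clamp loader, had 13.2, 12.8 and 12.3 FPKM after DMSO and 13.1, 13.0 and 13.5 FPKM after Japoflavone B. Its groups overlapped, and the log2 fold change of 0.15 ± 0.06 (edgeR adjusted p = 0.0195) fell to 0.05 with library totals (adjusted p = 0.441). The call for RFC1 was also lost without DMSO library 2 or 3 or Japoflavone B library 3 (adjusted p = 0.0607, 0.0625 and 0.0652).

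The small loader subunits shared by all clamp loaders fell by 1.45 to 1.71-fold: RFC3 (-0.78 log2), RFC5 (-0.70), RFC2 (-0.61) and RFC4 (-0.54). RFC3 had 25.2, 24.2 and 24.6 FPKM after DMSO and 13.0, 14.5 and 12.8 FPKM after Japoflavone B. Its groups did not overlap, and RFC3 went from 1.94 ± 0.0603 to 1.02 ± 0.0870 times RFC1. DSCC1, a part of the alternative loader that acts in sister chromatid cohesion, had 12.5, 11.9 and 12.8 FPKM after DMSO and 5.66, 5.06 and 5.43 FPKM after Japoflavone B. The treated libraries were all lower, and DSCC1 fell 2.14-fold (-1.10 log2; edgeR adjusted p = 2.52e-11). Relative to RFC1 it went from 0.975 ± 0.0584 to 0.409 ± 0.0218.

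Among the fork protection and turnover genes all 5 fell, 3 by at least 2-fold. CLSPN, which carries the checkpoint signal from stalled forks to CHK1, had 6.05, 4.92 and 4.74 FPKM after DMSO and 0.96, 0.94 and 0.95 FPKM after Japoflavone B. Its treated libraries were nearly equal and far below the solvent libraries. CLSPN fell 5.15-fold, log2 fold change -2.36 ± 0.10 (edgeR adjusted p = 7.01e-18). TIMELESS and TIPIN, the partners that travel with CLSPN at the fork, were reduced less. TIMELESS had 26.8, 27.0 and 25.9 FPKM after DMSO and 14.9, 13.9 and 15.1 FPKM after Japoflavone B and fell 1.69-fold (-0.76 log2; edgeR adjusted p = 1.11e-12). TIPIN had 7.50, 7.79 and 8.57 FPKM after DMSO and 6.32, 5.13 and 5.58 FPKM after Japoflavone B and fell 1.30-fold (-0.38 log2; edgeR adjusted p = 0.00185). Neither gene had overlapping groups, and TIPIN went from 0.2998 ± 0.0271 to 0.387 ± 0.0313 times TIMELESS. DTL, the adaptor of the ubiquitin ligase that removes CDT1 protein in S phase, fell 2.68-fold (-1.42 log2), and WDHD1, which tethers polymerase alpha to the helicase, fell 2.44-fold (-1.29 log2).

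All 4 genes of nucleotide supply fell, and the subunits of ribonucleotide reductase parted. RRM2 (ENSG00000171848, chromosome 2, 10120698 to 10211725), the small subunit made in S phase, had 33.5, 32.3 and 33.0 FPKM after DMSO and 5.02, 4.91 and 5.18 FPKM after Japoflavone B. The libraries within each group were almost equal. RRM2 fell 6.09-fold, log2 fold change -2.61 ± 0.06 (edgeR adjusted p = 2.00e-24). RRM1, the large subunit, had 52.9, 48.1 and 49.9 FPKM after DMSO and 34.2, 32.5 and 32.5 FPKM after Japoflavone B. It fell 1.42-fold (-0.50 log2; edgeR adjusted p = 2.77e-09), without overlap. RRM2B, the p53-inducible small subunit, is not among the 56 genes and had 22.3, 21.0 and 20.9 FPKM after DMSO and 50.8, 49.9 and 53.7 FPKM after Japoflavone B. It was the small subunit with the higher FPKM in every treated library and the one with the lower FPKM in every solvent library. RRM2B rose 2.58-fold (1.37 log2; edgeR adjusted p = 8.41e-19). RRM2B stood at 0.649 ± 0.0153 times RRM2 after DMSO and at 10.2 ± 0.128 times after Japoflavone B, a 15.8-fold higher ratio (exact two-sided permutation p = 0.1, the smallest possible). RRM2 itself went from 0.655 ± 0.0195 to 0.153 ± 0.00644 times RRM1.

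The thymidine genes were also reduced unequally. TK1, thymidine kinase of the salvage route, had 80.4, 93.3 and 91.4 FPKM after DMSO and 26.2, 26.5 and 25.7 FPKM after Japoflavone B. The groups were well apart, and TK1 fell 3.15-fold (-1.65 log2; edgeR adjusted p = 6.43e-19). TYMS, thymidylate synthase of the direct route, fell 1.53-fold (-0.61 log2). TYMS overlaps ENOSF1 on the opposite strand by 3261 bases (ENOSF1 had -1.32 log2), and the strand setting of the counting is not given in the sources used here, so their reads cannot be told apart in the shared stretch.

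The chromatin assembly genes all fell by more than 2-fold. ASF1B, a histone H3-H4 chaperone of dividing cells, had 22.4, 25.5 and 24.7 FPKM after DMSO and 4.74, 4.97 and 5.37 FPKM after Japoflavone B. The treated libraries were all lower by a wide gap. ASF1B fell 4.48-fold, log2 fold change -2.17 ± 0.09 (edgeR adjusted p = 6.91e-18). CHAF1A, the large subunit of CAF-1, had 14.3, 14.8 and 14.1 FPKM after DMSO and 5.83, 5.49 and 5.23 FPKM after Japoflavone B and fell 2.43-fold (-1.28 log2; edgeR adjusted p = 4.41e-15). CHAF1B, its partner, had 7.86, 8.23 and 8.53 FPKM after DMSO and 3.62, 3.03 and 3.29 FPKM after Japoflavone B and fell 2.30-fold (-1.20 log2; edgeR adjusted p = 7.05e-13). Both subunits were lower in every treated library. Their ratio was 0.570 ± 0.0316 after DMSO and 0.601 ± 0.0424 after Japoflavone B, with overlapping values (exact permutation p = 0.3), a log2 difference of 0.07 beside SDs of 0.08 and 0.10. CHAF1B overlaps MORC3 on the same strand by 757 bases (MORC3 had 0.80 log2), and how their reads were divided is not known.

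Side by side, the summed FPKM of the helicase set was 3.96-fold lower, that of chromatin assembly 3.38-fold, nucleotide supply 2.41-fold, fork protection and turnover 2.18-fold, clamp and loaders 1.85-fold, polymerases and lagging strand 1.65-fold and origin licensing 1.44-fold. Abundant genes such as PCNA and RPA1 weigh most in these sums, and the medians of the log2 fold changes gave another order: helicase -1.81, fork protection and turnover -1.29, chromatin assembly -1.28, nucleotide supply -1.13, polymerases and lagging strand -1.05, clamp and loaders -0.70 and origin licensing -0.53. Ratios of subunits within a library do not depend on how libraries are scaled. Of 17 gene pairs compared this way, 15 had ratios that did not overlap between the groups, the exceptions being POLA2 to POLA1 and CHAF1B to CHAF1A. The pairs were chosen with earlier results known, the share among other gene pairs was not computed, and single genes already did not overlap in 71.6% of those tested, so the count of 15 is a description of these pairs. Each of the 15 had the exact p of 0.1, or 0.113 after Benjamini-Hochberg adjustment over the 17 pairs, so no single pair could pass 0.05 in this design.

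**Figure D5:**
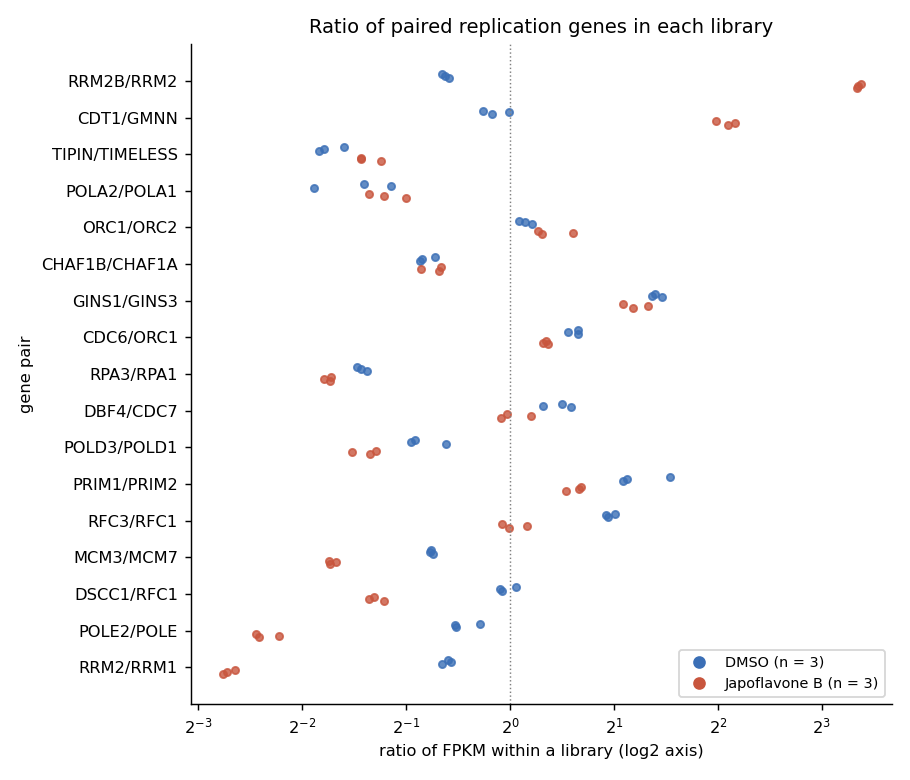
Ratio of the FPKM of the named gene pairs in each of the 3 DMSO and 3 Japoflavone B libraries (points, log axis). RRM2B relative to RRM2 and CDT1 relative to GMNN lie higher after Japoflavone B, POLE2 relative to POLE and RRM2 relative to RRM1 lie lower, and CHAF1B relative to CHAF1A overlaps.

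Level and length did not order the members' responses: across the 56 genes, Spearman's rho of the log2 fold change was -0.05 with the DMSO FPKM and -0.10 with the exonic length, a description over genes that are not independent of one another. The deposited table also lists 22 pseudogene copies of 12 members by symbol. Of these 18 had no counts at all, and the copy with the most counts had 33 over the 6 libraries, so few reads were assigned to the copies; how reads that fit both were treated is not given in the sources used here.

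Another 56 genes that act in replication but are not members were listed as the rest of the pathway. Of all genes tested 35.4% fell, 15.0% by at least 2-fold, and 34.7% rose, with a median log2 fold change of -0.00. Of these other replication genes 43 fell, 20 by at least 2-fold, 5 rose and 8 did not pass, with a median log2 fold change of -0.65. The lowest values were those of CCNA2, the S phase cyclin A (-2.92 log2), TOP2A, which untangles daughter duplexes (-2.87), UHRF1, which brings DNA methylation to new strands (-2.84), ESCO2, a cohesin acetyltransferase (-2.79), and cyclin E2, CCNE2 (-2.27). Beside RRM2B, those that rose were LRWD1, an ORC-associated protein, 2.00-fold, TOP1, the topoisomerase ahead of the fork, 1.65-fold, RNASEH1, which removes RNA from RNA-DNA hybrids, 1.24-fold, and HROB, a recruiter of another MCM helicase (0.29 log2; edgeR adjusted p = 0.0254). TOP1 had 17.6, 14.6 and 15.3 FPKM after DMSO and 24.4, 23.8 and 24.9 FPKM after Japoflavone B, and so moved opposite to TOP2A, which had 238.3, 214.9 and 216.9 FPKM and then 28.9, 27.1 and 29.3 FPKM. Neither gene had overlapping groups, whereas HROB overlapped and lost its call in 7 of the 16 alternative settings, among them those without DMSO library 1 or Japoflavone B library 1 or 2 (edgeR adjusted p = 0.0942, 0.0852 and 0.109).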

How the data were processed

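Poly(A) RNA was sequenced in 6 libraries, 3 per group, grouped by the treatment label. The deposited table gives raw counts per gene as whole numbers and FPKM, which the authors computed from the counts, the exonic gene size in bases, per the file headers, and the library total; recomputed FPKM differed by at most 0.005. The submitters' processing notes list the build GRCh38 with HISAT2 2.0.1, cutadapt 1.9.1, DESeq2 and HTSeq 0.6.1, without their roles; annotation release, counting mode and strand setting are not given in the sources used here.

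Counts were filtered (filterByExpr, at least 10 counts), scaled by TMM and tested with the quasi-likelihood F test of edgeR 4.0.16 under R 4.3.3 (a model with treatment only), leaving 16082 genes; all 56 members passed the filter. P-values were adjusted by Benjamini-Hochberg over all genes tested, with a threshold of 0.05. The F test gives no standard error of the log2 fold change. The SE printed is the one its F statistic implies, the absolute log2 fold change divided by the square root of F. FPKM ratios of gene pairs were compared by exact two-sided permutation. The workflow was run on simulated counts in which only a small part of the genes was changed. In these data 70.0% of the genes tested were called, so that run could not check the scaling. Depth was 15298531 to 21744407 counts per library; intervals for single counts were not needed.

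The members, lists and pairs were chosen with earlier results of these data known. All members are named; values per library are given for members that rose or did not pass, for the lowest, highest and most abundant member of each set, and for printed pairs. Of the other replication genes, those that rose and the 6 lowest were to be named, of which 1 is not reported here; any further gene, and the values per library of MCM6, TOP1 and TOP2A, was chosen after its values were seen. Replicate numbers were not used to pair the libraries in the main test, since no label states a pairing. The deviations of same-numbered libraries correlated at 0.013, -0.004 and -0.045, which cannot show whether they shared a culture or day. Alternatives were DESeq2 1.42.0 (size factors and test), upper-quartile scaling, library totals, robust estimation, a filter of mean FPKM 2 or above, no filter, limma 3.58.1 on log2(FPKM + 1) and log2(FPKM + 0.1), a replicate block and each library left out.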

Additional observations from a re-analysis of the deposited data

How the results depend on the processing

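Over 16 alternative settings, 51 to 52 of the 56 members fell, and 50 of the 51 called lower were so in each; the other, POLA2, was removed by the filter of a mean of at least 2 FPKM. Of all members' fold changes under the alternatives, 873 kept direction and side of the threshold, 15 lost a call, 4 gained one and 3 changed sign. Members lower by at least 2-fold numbered 28 to 30. The count of members that rose went from 3 to 1 with library totals alone, with limma on log2(FPKM + 1) and on log2(FPKM + 0.1), and with a mean of at least 2 FPKM, since POLD2 and RFC1 lost their calls; the first 3 of these settings scale by library totals, and in the other the cause was not tested. CDT1 rose in every setting run. Limma on log2(FPKM + 1) understates changes of low genes by its added 1 FPKM. It moved the unlogged fold changes of POLE2, CLSPN, POLA2, ESCO2 and CCNE2 by over 1.5 times. Their log2 fold changes became -2.11, -1.67, -0.77, -2.12 and -1.11, and each still fell. ORC4, which did not pass, changed sign to -0.010 with library totals, -0.0092 with limma on log2(FPKM + 0.1) and -0.0077 on log2(FPKM + 1).

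With the replicate number as a block, 5502 genes rose and 5618 fell, and the members' counts stayed at 3 and 51; no member's call changed. Leaving out 1 library at a time, 51 members fell each time, 29 to 30 by at least 2-fold, and 2 rose; over all genes 5296 to 5681 rose and 5345 to 5663 fell, and of the other replication genes 4 to 6 rose and 40 to 44 fell. Over 136 recomputed ratios none changed direction, and the log2 ratio RRM2B to RRM2 went from 3.98 to 3.95 with 0.1 FPKM added to both genes.

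With 3 libraries per group, the smallest exact p is 0.1. The data are 1 cell line, 1 time and 1 dose, and RNA levels only. POLA2, POLE2, CLSPN and GINS3 were near or below 1 FPKM after treatment, where few counts (188, 140, 492 and 306 in all) carry the value. The same holds for CCNE2 and ESCO2 of the other replication genes, with 92 and 463 counts after treatment.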

Other observations

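Several replication genes share a short upstream region with a gene that is read in the opposite direction. In the coordinates of the deposited table, 23 of the 56 members have a tested neighbour on the other strand whose 5′ end lies within 1000 bases. Of these 23 neighbours 8 fell, 8 rose and 7 did not pass, with a median log2 fold change of 0.12. Of all genes tested 35.4% fell and 34.7% rose, so the neighbours' counts were near the background, whereas the 23 members had a median of -1.20. Some pairs show both directions. LIG1 fell (-1.64 log2) while ZSWIM9, which starts 77 bases away, rose (0.56). PCNA fell (-0.87) while CDS2, 253 bases away, rose (0.32). WDHD1 fell (-1.29) while SOCS4, 125 bases away, rose (0.43), and TIPIN fell (-0.38) while the kinase gene MAP2K1, 91 bases away, rose (0.67). CDC45 fell (-1.69) while UFD1, 255 bases away, had 0.06, and MCM2 fell (-1.75) while TPRA1, 143 bases away, had 0.14; neither of these neighbours passed the test. In MCM4 and PRKDC, which start 7 bases apart, both fell (-1.80 and -0.81), as did POLE and PXMP2 (-0.99 and -1.24). The neighbours were chosen after their values were seen, where pairs overlap the strand setting is not known, and no test of the pairs was made.

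Among the members of GINS, ORC, polymerase delta and RFC1 to RFC5, the gene of each with the highest log2 fold change is set beside the others. GINS4 had a log2 fold change of -0.69 beside -2.27 to -1.995 for the other GINS genes. ORC4 among the ORC genes, POLD2 among the polymerase delta genes and RFC1 among RFC1 to RFC5 had log2 fold changes of 0.09, 0.16 and 0.15. Their partners among the members ran from -0.86 to -0.31, from -1.27 to -0.71 and from -0.78 to -0.54. The ORC values were spread, with ORC6 at -0.86 and the next, ORC2, at -0.55. DSCC1, of the alternative loader, had -1.10 log2. Polymerase delta also has POLD4, which is not a member and had -0.22 log2 (edgeR adjusted p = 0.0240). That value lies above those of POLD1 and POLD3, so POLD2 was not alone in changing little. These are values read after the fact, with no test of the exceptions as a class.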
